A study of Mus musculus with 11 samples.

Results

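The enzymes that break down branched-chain amino acids, propionate, lysine, glycine, proline, ornithine and glutamate, most of them in the mitochondrion, were followed in the pancreas of mice with caerulein-induced acute pancreatitis. The list named 39 genes, and 37 of them had a probe set with exactly 1 gene symbol in the platform annotation, of 19938 such genes in all. Where a gene had several probe sets, 1 was selected on its mean level over the 11 arrays, the highest being taken. The genes themselves were chosen by pathway with their caerulein minus NaCl differences on these arrays already known, so counts over the list describe it and test nothing. Gls2 was not analysed here. Mut is annotated under its other symbol Mmut, so it fell outside the rule and its values are given apart. Bcat1 and Aldh9a1 encode enzymes known as cytosolic, so the label of a mitochondrial set holds for the other members only.

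All mice were wild-type C57Bl6J. The caerulein group (6 arrays) received 9 hourly intraperitoneal injections of caerulein, a cholecystokinin analogue that overstimulates the enzyme-secreting acinar cells, at 50 mg/kg as the series record writes it, a unit not checked here. The control group (5 arrays) received sodium chloride (NaCl). The series text counts 4 control mice against 5 in the titles, and none of the 5 was left out. Age, sex and the time from the last injection to tissue collection are not stated. Nothing says outright that each array stands for its own mouse, and the p-values reflect sample-to-sample spread, which may be technical. RNA came from whole pancreas. Of 11 measured acinar markers, averaged per array, the log2 level was 13.12 to 13.28 in NaCl and 12.40 to 12.51 in caerulein, against array medians over all probe sets of 5.20 to 5.40. The lower caerulein mean came mainly from Cckar (-4.05), Bhlha15 (-2.001) and Rbpjl (-1.43), the last named after its value was seen, while the median difference of the 11 was -0.12. In whole tissue, fewer cells of a type and less RNA per cell cannot be told apart.

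The branched-chain amino acids leucine, isoleucine and valine are first transaminated, then oxidised by the branched-chain ketoacid dehydrogenase complex, and then cut down in separate mitochondrial chains that end in acetyl-CoA, acetoacetate or propionyl-CoA. Propionyl-CoA is carboxylated and rearranged to succinyl-CoA. Lysine, glycine and proline have pathways of their own, and proline, ornithine and glutamate meet in the glutamate and 2-oxoglutarate pool. The acinar cell is known for a high rate of protein synthesis and for a high content of the mitochondrial branched-chain aminotransferase.

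In caerulein pancreas most of the set was lower. Of the 37 enzymes 31 fell (limma, adjusted p under 0.05 over all 35556 probe sets), where 34.3% of named genes were lower. The other 6 were Dld, Glud1 and Got2, higher as deposited but lower with the reference genes aligned (arrays shifted so that a list of commonly used reference genes had 1 mean level throughout), and Bcat1, Gldc and Gcsh, which did not pass; 20.3% of named genes were higher. In either direction 34 of 37 passed, where 54.6% of named genes and 44.2% of probe sets did. At least 2-fold lower were 18 of the 37, where 1.44% of named genes were. In 31 of the 37 every caerulein array lay below every NaCl array, where 20.6% of named genes did, and in 2 every one lay above, where 16.7% did. These shares were not matched for level, and 35 of the 37 lay above the median level of all probe sets. With the dimmer 50% of probe sets left out, 30 of 35 members and 38.2% of named genes were lower. The median log2 difference of all 37, caerulein minus NaCl, was -0.91, and over all named genes it was -0.13. Aass ranked 7 from the bottom of 19938 differences, Aldh6a1 9 and Acadsb 14. The same 31 genes were lower in each of the other settings in which they were fitted, namely 4 rescalings, 2 other variance models, the replicate block, averaged probe sets, the filter on dim probe sets and each array left out. With the reference genes aligned all 37 were lower, where 86.5% of named genes were lower and the median of all named genes was -0.89. The reference list itself moved, with 7 of its 12 measured genes higher as deposited, Actb by 7.64-fold.

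**Figure D1:**
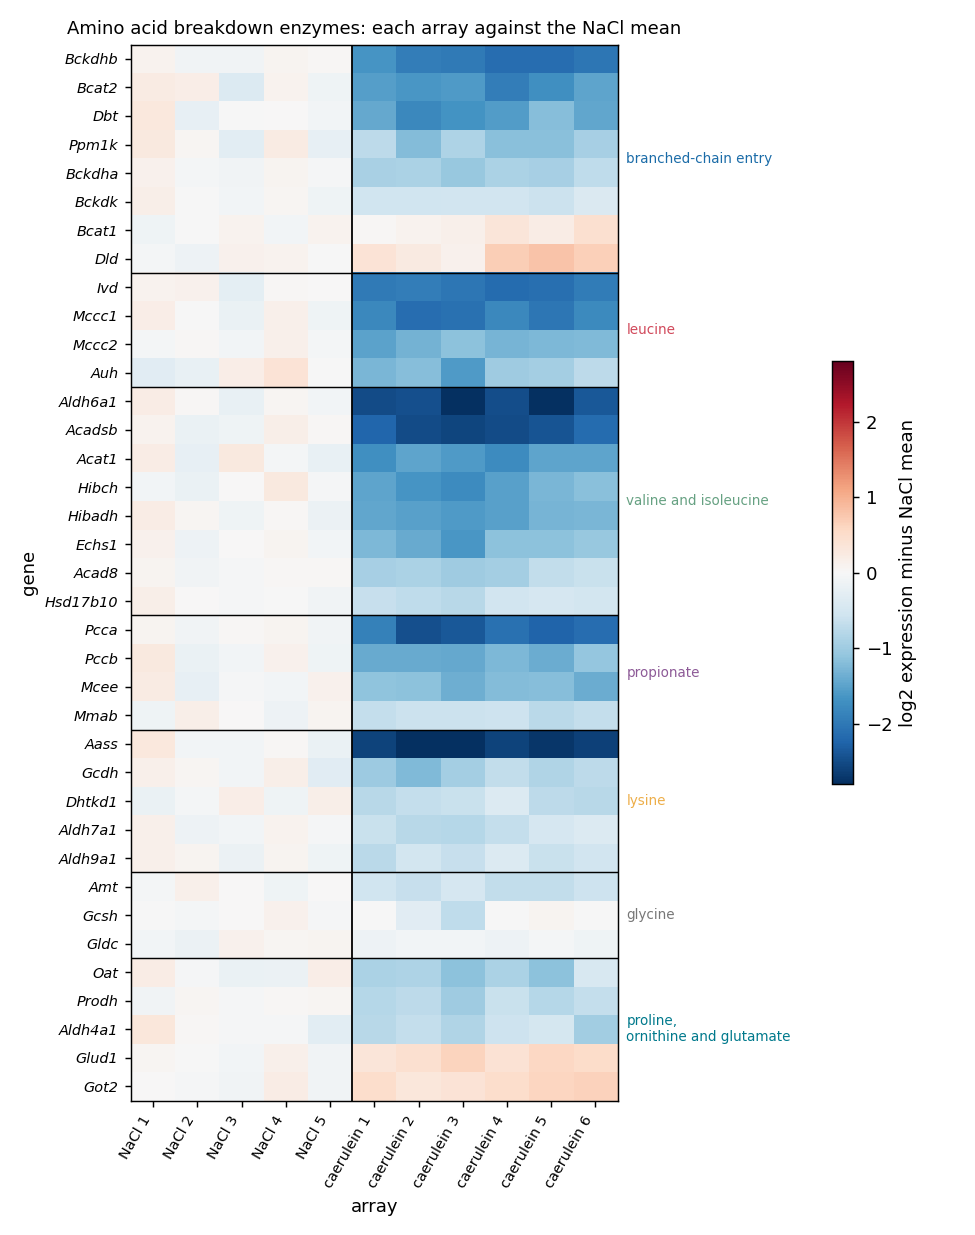
Log2 expression of the 37 enzymes on each of the 11 arrays (columns) after subtraction of the gene's NaCl mean, ordered by pathway (rows). Blue is below and red above the NaCl mean. The columns of the 6 caerulein arrays are blue for 31 genes. The rows of Dld, Glud1 and Got2 are red but turn lower with the reference genes aligned, where 86.5% of named genes were lower.

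**Figure D2:**
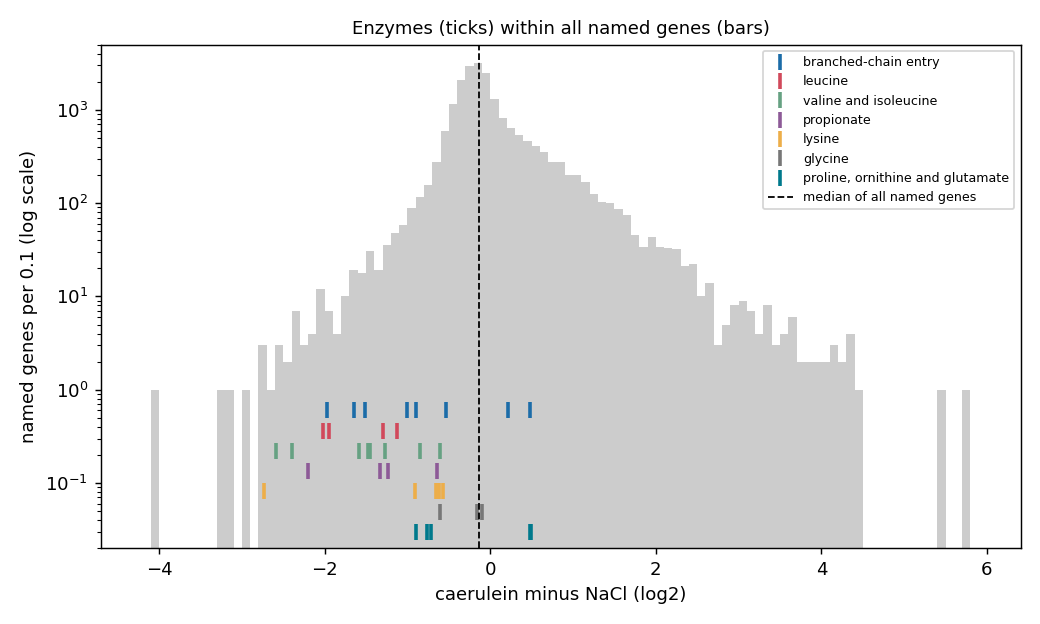
Caerulein minus NaCl log2 difference of the 19938 named genes (grey bars, number of genes per 0.1 on a log scale) with the 37 enzymes as ticks, 1 row of ticks per pathway whose height has no meaning. Ticks of the leucine, propionate, lysine and valine and isoleucine pathways all lie left of the dashed median of -0.13. Right of that median lie Bcat1, Dld, Gldc, Glud1 and Got2.

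The sequence before the start is shown for the largest fall of the lysine, the valine and isoleucine and the leucine pathway. It is also shown for Glud1, which had the opposite sign as deposited. These genes were picked by their differences, and whether the sequences bear on the changes was not tested. Sequences are from RefSeq (GRCm38.p6), are the 250 bases before the annotated start, read 5′ to 3′ on the gene's strand, and carry in capitals every CCAAT (or ATTGG, its reverse complement) and GGGCGG (or CCGCCC). They lie at chr6:23132987-23133236 (minus strand) for Aass, chr12:84451025-84451274 (minus strand) for the more upstream of the 2 starts of Aldh6a1, chr2:118861744-118861993 (plus strand) for Ivd and chr14:34310477-34310726 (plus strand) for Glud1.
Aass: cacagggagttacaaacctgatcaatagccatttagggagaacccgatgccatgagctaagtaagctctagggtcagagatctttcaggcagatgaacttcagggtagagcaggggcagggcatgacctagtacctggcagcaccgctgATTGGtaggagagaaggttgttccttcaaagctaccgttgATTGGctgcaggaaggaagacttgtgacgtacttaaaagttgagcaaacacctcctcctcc
Aldh6a1: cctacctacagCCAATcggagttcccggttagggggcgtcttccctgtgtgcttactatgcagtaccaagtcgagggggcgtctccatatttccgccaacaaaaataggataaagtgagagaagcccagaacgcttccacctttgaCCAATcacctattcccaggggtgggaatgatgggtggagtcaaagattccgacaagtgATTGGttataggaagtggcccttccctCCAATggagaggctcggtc
Ivd: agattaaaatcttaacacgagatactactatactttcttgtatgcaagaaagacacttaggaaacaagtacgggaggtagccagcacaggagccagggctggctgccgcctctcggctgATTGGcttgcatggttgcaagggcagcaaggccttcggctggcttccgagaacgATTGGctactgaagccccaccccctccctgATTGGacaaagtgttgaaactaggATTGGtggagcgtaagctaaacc
Glud1: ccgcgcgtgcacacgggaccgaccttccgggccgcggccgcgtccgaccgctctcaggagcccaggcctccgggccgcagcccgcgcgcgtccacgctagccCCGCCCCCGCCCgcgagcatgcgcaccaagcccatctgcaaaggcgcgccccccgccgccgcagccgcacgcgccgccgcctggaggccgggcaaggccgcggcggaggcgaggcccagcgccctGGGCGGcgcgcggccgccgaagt
The Aass window held 2 CCAAT boxes, at 101 to 97 and 61 to 57 bases before the start, those of Aldh6a1 and Ivd held 4 each, and that of Glud1 held none but 3 GC boxes. Over the 34 members with a promoter in the table (39 windows), CCAAT stood in 66.7% of windows, against 33.8% of all 32851 windows and 34.5% of the windows of named genes. GGGCGG stood in 46.2%, against 32.7% and 45.5%. By gene, 24 of the 34 members held a CCAAT box, 20 of them among the 28 that fell, so members that did not fall held it too. The element of oestrogen-related receptors, TNAAGGTCA, was in none of the member windows. It was in 1.14% of all windows and 0.907% of those of named genes. The ATF4 element TGATGNAAT was in 1 member window, that of Echs1. It was in 0.816% of all windows and 0.594% of those of named genes. At shares this low, 39 windows are too few to show a lack or an excess. The motifs were chosen after the expression values had been seen, and both strands were searched. No printed window held both a CCAAT box and a GC box. A match is a string of letters, not a measured site.

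The entry into branched-chain breakdown fell at the transaminase and at both specific components of the dehydrogenase. Of 8 genes 6 fell, 1 was higher and 1 did not pass, with a median difference of -0.95. Bcat2, the mitochondrial branched-chain aminotransferase, had log2 expression of 9.34, 9.30, 8.73, 9.22 and 8.99 on the NaCl arrays and 7.18 to 7.63 (median 7.51) on the caerulein arrays. The groups did not overlap, and the fall was 3.14-fold (log2 difference -1.65, SE 0.12, limma adjusted p = 2.0e-07). Bcat1, its cytosolic isoenzyme, was 5.79, 5.90, 6.01, 5.84 and 6.00 in NaCl and 5.94 to 6.36 (median 6.09) in caerulein. These arrays overlapped, and the difference of 0.21 (SE 0.08) did not pass (limma adjusted p = 0.0553). It passed with values of 0.29 when quantile normalisation was repeated (adjusted p = 0.00875) and 0.33 under cyclic loess (adjusted p = 0.00553). With the reference genes aligned it was -0.54, where the median of all named genes was -0.89.

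In the dehydrogenase complex, Bckdhb, the beta subunit of the decarboxylase, was 7.77, 7.56, 7.55, 7.73 and 7.70 in NaCl and 5.53 to 6.02 (median 5.66) in caerulein. This was the largest fall of the group, 3.92-fold (log2 difference -1.97, SE 0.09, limma adjusted p = 3.7e-09), with no overlap. Its partner Bckdha, the alpha subunit, was 8.65, 8.49, 8.44, 8.61 and 8.50 in NaCl and 7.47 to 7.83 (median 7.63) in caerulein. All caerulein arrays were again lower, by 1.87-fold. Dbt, the core acyltransferase, fell 2.86-fold, from 8.58 ± 0.19 (SD, n = 5) to 7.06 ± 0.21 (SD, n = 6). Dld, the dihydrolipoamide dehydrogenase that this complex shares with the pyruvate and oxoglutarate dehydrogenases and with the glycine cleavage system, differed in sign. It was 7.40, 7.30, 7.59, 7.55 and 7.44 in NaCl and 7.83, 7.71, 7.57, 8.14, 8.26 and 8.13 on caerulein arrays 1 to 6. Caerulein array 3 lay inside the NaCl range and arrays 4, 5 and 6 were the highest. As deposited the difference was 0.49 (SE 0.12, limma adjusted p = 0.00638), but quantile normalisation repeated on these values gave 0.20 (adjusted p = 0.217). Alignment of the reference genes gave -0.27 (adjusted p = 0.0353), where the median of all named genes was -0.89.

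Both regulators of the complex fell. Bckdk, the kinase that switches it off, was 10.46, 10.29, 10.22, 10.36 and 10.19 in NaCl and 9.71 to 9.90 (median 9.76) in caerulein, 1.44-fold lower without overlap (limma adjusted p = 3.2e-05). Ppm1k, the phosphatase that switches it on, was 6.16, 5.94, 5.60, 6.12 and 5.66 in NaCl and 4.69 to 5.17 (median 4.85) in caerulein, 2.01-fold lower (limma adjusted p = 3.7e-05). The kinase arrays were close together in caerulein (SD 0.07), while the phosphatase varied more in both groups (SD 0.26 and 0.20).

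**Figure D3:**
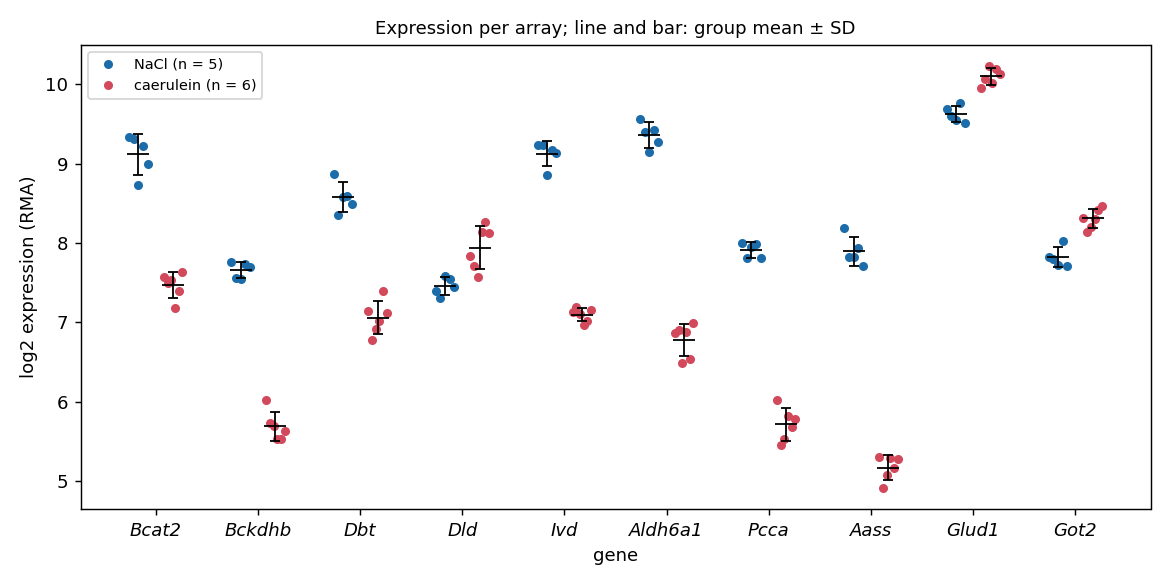
Log2 expression (RMA) of 10 enzymes on the 5 NaCl and 6 caerulein arrays, 1 point per array, with group mean and SD. Groups are apart for all genes but Dld, whose lowest caerulein array at 7.57 lies under the highest NaCl array at 7.59. The higher values of Dld, Glud1 and Got2 turn lower with the reference genes aligned, where 86.5% of named genes were lower.

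All 4 leucine enzymes fell, with a median difference of -1.62. Ivd, the dehydrogenase of isovaleryl-CoA, was 9.23, 9.24, 8.86, 9.17 and 9.13 in NaCl and 6.97 to 7.19 (median 7.12) in caerulein. No array crossed a gap of more than 1.5 log2 units, and the fall was 4.07-fold (log2 difference -2.03, SE 0.08, limma adjusted p = 9.7e-10). For methylcrotonyl-CoA carboxylase, which adds a carboxyl group with biotin, the measured fall was larger for the biotin-carrying subunit than for its partner. Mccc1, the biotin subunit, was 7.58, 7.40, 7.21, 7.54 and 7.28 in NaCl and 5.26 to 5.61 (median 5.48) in caerulein, 3.85-fold lower. Mccc2, the other subunit, was 7.13, 7.23, 7.12, 7.34 and 7.15 in NaCl and 5.69 to 6.04 (median 5.92) in caerulein, 2.45-fold lower. The groups were apart for both. Auh, the next hydratase, fell 2.18-fold with the widest caerulein range of the 4 (6.09 to 6.96).

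All 8 valine and isoleucine enzymes fell, with a median difference of -1.46 and a range from -2.58 to -0.61. Aldh6a1, which oxidises methylmalonate semialdehyde at the end of the valine chain, was 9.57, 9.40, 9.14, 9.42 and 9.28 in NaCl and 6.49 to 6.99 (median 6.87) in caerulein. This 5.99-fold fall (log2 difference -2.58, SE 0.11, limma adjusted p = 1.7e-09) left the groups more than 2 log2 units apart. Acadsb, the acyl-CoA dehydrogenase of the isoleucine chain, fell 5.27-fold, from 8.51 ± 0.14 (SD, n = 5) to 6.11 ± 0.17 (SD, n = 6). Acad8, its counterpart for valine, fell 1.80-fold. The thiolase Acat1 fell 3.00-fold, the hydrolase Hibch 2.79-fold, the dehydrogenase Hibadh 2.73-fold, the enoyl-CoA hydratase Echs1 2.42-fold and the dehydrogenase Hsd17b10 1.53-fold. Echs1, Acat1 and Hsd17b10 also serve other pathways, among them fatty acid oxidation, ketone body use and mitochondrial RNA processing. Hibadh had a second, much dimmer probe set at 2.81 in NaCl and 2.85 in caerulein that did not pass, and the mean of both gave -0.70 for the gene.

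In the propionate branch all 4 members fell, with a median difference of -1.29. Pcca, the biotin subunit of propionyl-CoA carboxylase, was 7.996, 7.81, 7.95, 7.99 and 7.81 in NaCl and 5.46 to 6.03 (median 5.73) in caerulein. The fall was 4.58-fold (log2 difference -2.20, SE 0.10, limma adjusted p = 2.9e-09), without overlap. Pccb, the other subunit, was 9.07, 8.60, 8.72, 8.91 and 8.67 in NaCl and 7.37 to 7.70 (median 7.40) in caerulein, 2.52-fold lower. Mcee, the epimerase of methylmalonyl-CoA, fell 2.36-fold, and Mmab, which makes the adenosylcobalamin of the mutase, 1.57-fold. Mmut, the mutase itself, which the rule left out by its symbol, was 8.02, 7.87, 8.03, 8.03 and 7.95 in NaCl and 5.69 to 6.40 (median 5.85) in caerulein. It was 4.04-fold lower (limma adjusted p = 3.3e-08), and with it 32 of 38 genes were lower.

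Of the lysine pathway all 5 members fell, and its first step led the whole set. Aass, the enzyme that joins lysine to 2-oxoglutarate and splits the product, was 8.19, 7.83, 7.83, 7.94 and 7.71 in NaCl and 4.91 to 5.30 (median 5.22) in caerulein. The groups lay more than 2 log2 units apart, a 6.62-fold fall (log2 difference -2.73, SE 0.10, limma adjusted p = 5.2e-10). Aldh7a1, the next aldehyde dehydrogenase, was 9.81, 9.52, 9.59, 9.75 and 9.62 in NaCl and 8.85 to 9.28 (median 9.01) in caerulein, 1.54-fold lower. Gcdh, the glutaryl-CoA dehydrogenase, fell 1.88-fold and Dhtkd1, the decarboxylase of 2-oxoadipate, 1.58-fold. Aldh9a1, an aldehyde dehydrogenase of carnitine synthesis from trimethyllysine, fell 1.49-fold.

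In the glycine cleavage system 1 of 3 members passed. Amt, its aminomethyltransferase, was 6.19, 6.39, 6.27, 6.14 and 6.26 in NaCl and 5.56 to 5.78 (median 5.64) in caerulein, 1.52-fold lower without overlap (limma adjusted p = 1.0e-05). Gldc, the decarboxylase, was 5.08 ± 0.12 (SD, n = 5) and 4.98 ± 0.04 (SD, n = 6), and Gcsh, the lipoyl carrier protein, 5.42 ± 0.07 (SD, n = 5) and 5.26 ± 0.30 (SD, n = 6). Their differences of -0.10 (SE 0.06) and -0.16 (SE 0.13) did not pass (limma adjusted p = 0.237 and 0.314), and both changed sign after cyclic loess (0.10 and 0.03). Whether such dim probe sets lie above background is unknown here. With an equal scaling list mean both were lower (-0.86 and -0.92), where the median of all named genes was -0.89.

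Proline, ornithine and glutamate enzymes split, with 3 lower and 2 higher as deposited. Oat, the ornithine aminotransferase, was 7.17, 6.93, 6.79, 6.79 and 7.14 in NaCl and 5.81 to 6.51 (median 6.08) in caerulein, 1.86-fold lower (limma adjusted p = 9.1e-05). Prodh, which starts proline oxidation, fell 1.70-fold, and Aldh4a1, which completes it to glutamate, 1.65-fold, all without overlap. Got2, the mitochondrial aspartate aminotransferase, was 7.83, 7.80, 7.73, 8.03 and 7.71 in NaCl and 8.14 to 8.47 (median 8.31) in caerulein. Its second probe set gave the same difference within its error (0.50, SE 0.08, against 0.49, SE 0.08). Glud1, the glutamate dehydrogenase, was 9.69, 9.60, 9.54, 9.76 and 9.51 in NaCl and 9.96 to 10.23 (median 10.10) in caerulein. As deposited Got2 was 1.41-fold higher (limma adjusted p = 0.000306) and Glud1 1.40-fold higher (limma adjusted p = 0.000157). They no longer passed after repeated quantile normalisation (0.19, adjusted p = 0.0508, and 0.17, adjusted p = 0.0693). With the reference genes aligned they were -0.27 and -0.28, where the median of all named genes was -0.89.

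**Figure D4:**
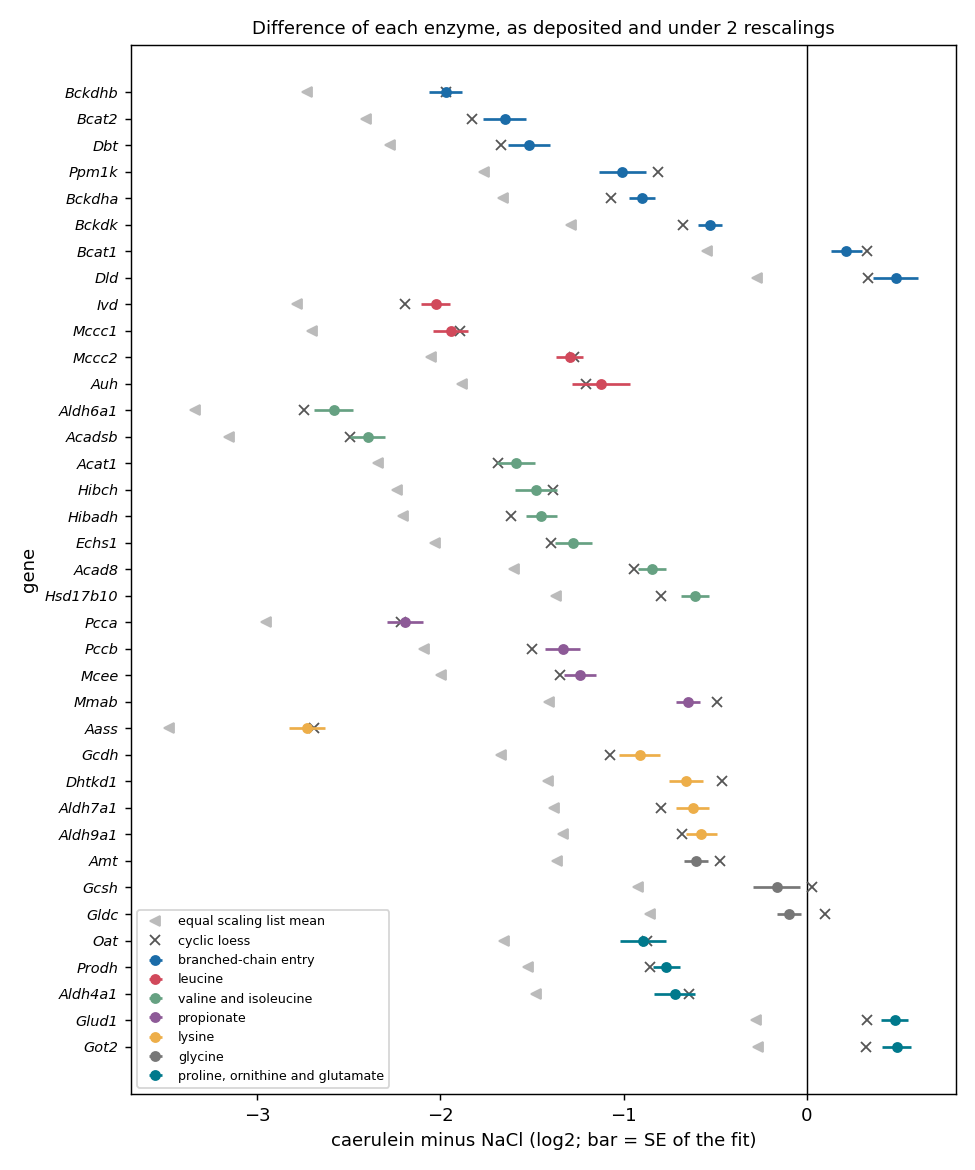
Caerulein minus NaCl log2 difference of the 37 enzymes by pathway (coloured points; bars are the SE of the fit), with the same difference after cyclic loess (crosses) and with the reference genes aligned (grey triangles, the equal scaling list mean of the legend). The points of 31 genes lie left of 0 in all 3 versions, while Bcat1, Dld, Glud1 and Got2 change side with the reference genes aligned and Gcsh and Gldc after cyclic loess. The median of all named genes was -0.89 with the reference genes aligned.

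Partners within an enzyme or a pathway changed unequally in 6 of 10 pairs. The pairs were formed from genes whose differences on these arrays were already known. Their count and p-values thus describe these pairs and are no independent test. How often other pairs of genes would do so was not tested, and 54.6% of named genes passed singly in either direction. Each partner is read by 1 probe set, so unequal response of probe sets and unequal mRNA cannot be told apart. For 10 pairs the log2 difference between the partners was taken within each array, so that a shift of a whole array cancels, and compared between groups (exact two-sided permutation test over 462 splits, Benjamini-Hochberg over the 10 pairs). Aass fell by 2.10 more on the log2 scale than Aldh7a1 (a value of -2.10, exact p = 0.00216, adjusted p = 0.00722), with no overlap between the groups. Against Bcat2, Bcat1 changed by 1.86 (exact adjusted p = 0.00722), and Bckdha by 1.07 against Bckdhb (exact adjusted p = 0.00722). The smallest p that 5 against 6 arrays allow is 0.00216, which these 3 pairs reached.

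In both biotin carboxylases the biotin subunit fell more than its partner. Pcca changed by -0.86 against Pccb and Mccc1 by -0.65 against Mccc2, each without overlap (exact adjusted p = 0.00866 for both). Bckdk changed by 0.48 against Ppm1k (exact adjusted p = 0.0108), with overlapping arrays, but not after repeated quantile normalisation (0.04, exact adjusted p = 0.837) or cyclic loess (0.14, exact adjusted p = 0.422). No unequal change was found for Hibch against Hibadh (-0.03), Gldc against Gcsh (0.07), Prodh against Aldh4a1 (-0.05) or Glud1 against Got2 (-0.01), with exact adjusted p = 0.866 for each. With its dim second probe set averaged in, the Hibch and Hibadh pair passed (-0.78, exact adjusted p = 0.00541).

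**Figure D5:**
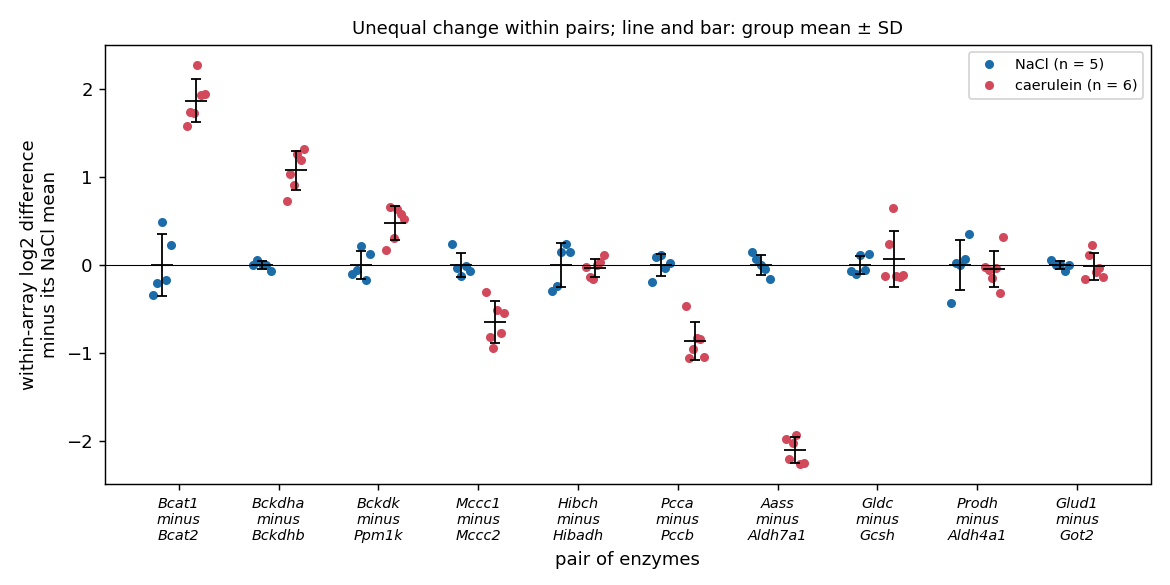
Within-array log2 difference between the partners of 10 enzyme pairs, minus the pair's NaCl mean, on the 5 NaCl and 6 caerulein arrays, with group mean and SD. The caerulein points of 5 pairs lie clear of the NaCl points, those of Bckdk minus Ppm1k overlap them, and those of the last 3 pairs and of Hibch minus Hibadh lie around 0.

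Among 16 further branched-chain and propionate genes, 9 were lower, 3 higher and 4 did not pass, with a median of -0.38. As deposited 34.3% of named genes were lower and 20.3% higher. Klf15, a transcription factor known to drive amino acid breakdown genes, fell 4.63-fold (log2 difference -2.21, SE 0.11, limma adjusted p = 6.2e-09). Slc3a2, the heavy chain of an exchanger that imports branched-chain amino acids, rose 3.12-fold (limma adjusted p = 2.1e-08). Both passed in the same direction under the 4 rescalings. Among 15 further proline, glutamate, aspartate and arginine genes 7 were lower and 5 higher as deposited. With the reference genes aligned 13 were lower and 1 higher, where 86.5% of named genes were lower. Got1, the cytosolic partner of Got2, rose 5.29-fold, and the aspartate-glutamate carrier Slc25a13 was higher by 0.66 as deposited but not with the reference genes aligned (-0.10). Among 9 further glycine, serine and threonine genes 5 were lower and 1 higher. The higher one was Shmt2, the mitochondrial serine hydroxymethyltransferase, which rose 2.48-fold, and Gnmt, the glycine methyltransferase, fell 2.96-fold.

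Electron carriers and sister complexes were described beside the set. Of named genes 34.3% were lower and 20.3% higher as deposited, and 86.5% were lower with the reference genes aligned. Of 11 cofactor and electron transfer genes the median was -0.25, with 6 lower and 1 higher. Etfa and Etfb, the subunits of the flavoprotein that takes electrons from Ivd, Acadsb, Acad8 and Gcdh, fell 1.79-fold and 1.74-fold. Slc25a32, the carrier for folate and flavin, was higher by 0.25 as deposited. It also passed after repeated quantile normalisation (0.30, limma adjusted p = 0.0171) and cyclic loess (0.34, limma adjusted p = 0.00686). It did not pass with array percentiles equalised (0.19) and was -0.51 with the reference genes aligned. Of 12 genes of the pyruvate and oxoglutarate dehydrogenases and their regulators, which share Dld, 5 fell and 4 rose as deposited, around a median of -0.07; 9 were lower and 1 higher with the reference genes aligned. Pdk1 and Pdk4, kinases that switch pyruvate dehydrogenase off, moved in opposite directions. Pdk1 fell 4.24-fold. Pdk4 had a NaCl mean of 4.94 ± 0.32 (SD, n = 5) and was 7.72, 7.77 and 7.74 on caerulein arrays 1 to 3 but 6.78, 6.81 and 6.73 on arrays 4 to 6. The fitted rise of 5.00-fold thus averages over 2 sets of arrays that stood apart, both above every NaCl array. Of 25 genes of mitochondrial structure and import, 5 were lower and 15 higher as deposited (median 0.33), but 15 were lower and 3 higher with the reference genes aligned. The mitochondrial chaperones Hspa9 and Hspd1 rose 3.00-fold and 2.71-fold as deposited, and Chchd3, a protein of the inner membrane folds, fell 1.53-fold. With the reference genes aligned the log2 differences were 0.83, 0.68 and -1.37, and all 3 genes passed in the same direction under each of the 4 rescalings.

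On every caerulein array the set lay lower. Averaged over the 37 genes and set against the NaCl mean, caerulein arrays 1 to 3 were at -1.04, -1.11 and -1.16. Arrays 4 to 6 were at -1.02, -1.015 and -0.92, all above arrays 1 to 3, though arrays 1 and 4 lay close. The NaCl arrays lay between -0.06 and 0.09, so no array stood between the groups. Over the 31 genes that fell, arrays 1 to 3 were at -1.274, -1.352 and -1.4. Arrays 4 to 6 were then at -1.274, -1.284 and -1.174, so that order did not hold. Over all probe sets, correlations between arrays were 0.981 to 0.991 within groups and 0.938 to 0.955 between groups.

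Markers of some cell types moved with the groups too. Of the 11 acinar markers 4 were lower and 0 higher as deposited (median -0.12), and 11 were lower with the reference genes aligned. After array percentiles were equalised 9 were lower, where 45.9% of named genes were. In 8 of the 11 every caerulein array lay below every NaCl array as deposited, where 20.6% of named genes did. Cckar, the cholecystokinin receptor, fell 16.6-fold. The 7 digestive enzyme genes among the 11 did not pass as deposited (-0.12 to 0.025). Their group means of 14.17 to 14.64 lie at the top of the measured range, where a change may not be readable. Duct markers were higher for 5 of 8 and lower for 2 as deposited (median 0.42), and higher for 3 and lower for 4 with the reference genes aligned (median -0.33), with deposited array means of 6.50 to 6.66 in NaCl and 7.42 to 7.71 in caerulein. Macrophage markers were higher for 5 of 10 and lower for 0 as deposited (median 0.40), and higher for 4 and lower for 6 with the reference genes aligned (median -0.36), with deposited array means of 5.84 to 5.97 and 6.40 to 7.23. Adipocyte markers, a cell type known for branched-chain breakdown, were lower for 5 of 9 and higher for 0, with array means of 5.69 to 5.94 and 5.37 to 5.83. Hepatocyte markers were lower for 5 of 6, with array means of 5.55 to 5.81 and 5.09 to 5.26, and islet markers for 6 of 11, with overlapping array means of 7.14 to 7.90 and 7.05 to 7.66. Stellate and fibroblast markers were lower for 2 of 10 and higher for 3, and endothelial markers lower for 2 of 8 and higher for 2. Lymphocyte markers were lower for 5 of 9, neutrophil markers for 3 of 10 and skeletal muscle markers for 2 of 8, with 0 higher in each. These deposited counts stand beside the 34.3% of named genes lower and 20.3% higher, and they moved with the scaling. With the reference genes aligned 86.5% of named genes were lower. After cyclic loess 3 adipocyte, 3 hepatocyte and 2 islet markers were lower, and after repeated quantile normalisation 3, 4 and 4. RMA values do not reach 0, so no marker is known to be absent, and the part of these cell types in the fall of the enzymes was not tested.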

How the data were processed

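Whole pancreas RNA was hybridised to Affymetrix arrays, 1 per sample; the values the authors deposited are on the log2 scale, 1 per probe set. The submitters' processing notes name RMA, oligo and limma without versions, and no genome build. RMA can compress differences at both ends of the range. Titles gave each array its group. The members and gene lists were chosen with earlier results of these data known. Group differences, caerulein minus NaCl, were fitted with limma 3.58.1 in R 4.3.3 (lmFit and eBayes, two-sided, Benjamini-Hochberg over 35556 probe sets, adjusted p under 0.05), which gave every adjusted p not named exact. The fit and the permutation test were tested on simulated data. The number of arrays limits the precision. Named array by array are each pathway's largest difference, its largest against the majority and partners of unequal pairs; of other lists the largest 2 called and the largest against the majority, of which some are given by group only. Correlations of deviations between arrays of the same replicate number were -0.052 to 0.060, so the numbers were not treated as pairs. Alternatives were rescalings, other variance models, a filter on dim probe sets, the replicate block, averaged probe sets and each array left out.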

Additional observations from a re-analysis of the deposited data

Results flagged for a closer look

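In 3 of 76 combinations of an enzyme (Mmut included) and a group, 1 array stood apart from the others of its group; chance marks about 1 in 20. Ivd on NaCl array 3 was 8.86, against 9.13 for the nearest other NaCl array. Bckdk on caerulein array 6 was 9.90, against 9.77 for the nearest other, and Dhtkd1 on caerulein array 4 was 5.27, against 5.01. In each case the array still lay on its own group's side, and the gene remained lower without it.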

How the results depend on the processing

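The number of enzymes lower was 31 as deposited, 30 with dim probe sets filtered out (35 of the 37 members kept), 37 with the reference genes aligned and 31 in every other setting run on the 37 members, each array left out included. The number higher was 0 with the reference genes aligned and 1 (Bcat1) after repeated quantile normalisation, against 3. The median difference was -1.67 with the reference genes aligned, -1.19 with quantile normalisation repeated, -1.07 under cyclic loess and -1.01 without the dimmer probe sets, and between -0.99 (without NaCl replicate 5) and -0.87 with 1 array left out. The median of all named genes was -0.89, -0.06, -0.02 and -0.07 in the first 4 of these settings, and the share of named genes lower was 86.5% with the reference genes aligned and 18.2% after cyclic loess. With an equal scaling list mean, Bcat1 was -0.54, Dld -0.27, Glud1 -0.28 and Got2 -0.27, the shift being part of that setting. Gldc was 0.058 with quantile normalisation repeated and 0.10 under cyclic loess, and Gcsh 0.031 under cyclic loess. Of the pairs not called, Hibch against Hibadh was 0.20 with quantile normalisation repeated, 0.23 under cyclic loess and -0.10 to 0.031 with 1 array left out, and Glud1 against Got2 was 0.0060 after cyclic loess and -0.060 to 0.018 with 1 array left out. Gldc against Gcsh ranged from -0.049 to 0.11 and Prodh against Aldh4a1 from -0.15 to 0.042 with 1 array left out. Unequal pairs numbered 6 with each array left out, 5 after either renormalisation and 7 with averaged probe sets; the cause was not tested. With the replicate block 31 were lower and 3 higher, the median was -0.98, and no call of an enzyme changed. Bcat1 passed without caerulein replicate 1 (0.25, limma adjusted p = 0.0303), with array weights and without the dimmer probe sets. Counting Mmut was added after the data had been seen.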

Other observations

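Of 13 genes of aromatic amino acid, histidine and sulphur breakdown 8 were lower and 1 higher as deposited (median -0.32), and 5 were lower after cyclic loess. Of named genes 34.3% were lower as deposited and 18.2% after cyclic loess. Gstz1, an isomerase of tyrosine breakdown, fell 1.69-fold (limma adjusted p = 7.1e-05). Ethe1, a mitochondrial enzyme of sulphide oxidation, was 1.77-fold higher as deposited (limma adjusted p = 3.0e-06) and did not pass with the reference genes aligned (0.07, adjusted p = 0.506).

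Of 11 further lysine and tryptophan genes 6 were lower and 0 higher (median -0.23), and 1 was lower after repeated quantile normalisation or cyclic loess. The share of named genes lower was 34.3% as deposited, 23.4% after repeated quantile normalisation and 18.2% after cyclic loess. Pipox, the pipecolate oxidase, was 1.44-fold lower (limma adjusted p = 4.7e-05). Haao, of tryptophan breakdown, was 1.31-fold lower as deposited (limma adjusted p = 0.00847) but not past after cyclic loess (adjusted p = 0.171).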
